A study of Mus musculus with 38 samples.

Results

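Among the 1726 HSF1 binding sites listed for mouse embryonic stem cells, 328 overlapped a SOX2 binding site by at least 1 bp and no HSF2 interval. These 328 sites are described here with the HSF1 signal over each of them and the SOX2 signal over the 344 SOX2 intervals that they overlap, of 15081 SOX2 intervals in all. The rule used the positions of listed intervals. The HSF1 and HSF2 intervals themselves had been called from their signal in these data, in A and in M cells, and combined. The presence of HSF1 at these sites is therefore no finding. The HSF1 ratios come from the signal used for the calling and are not independent of it. The SOX2 signal did not enter the rule. The other HSF1 sites were 236 at both a SOX2 and an HSF2 interval, 647 at an HSF2 interval without SOX2, and 515 at neither. The sites were measured by CUT&Tag in JM8 cells, a mouse embryonic stem cell line. In this assay the Tn5 transposase, tethered to an antibody on the factor, cuts and tags the nearby DNA for sequencing. Asynchronous (A) cells received no drug, and mitotic (M) cells were arrested with the tubulin inhibitor nocodazole (50 ng/ml, 6 h) and shaken off the plate. A and M cells therefore differ in drug and harvest as well as in cell cycle phase, and these cannot be told apart. For each factor and phase there were 2 libraries, labelled as biological replicates, which the authors averaged after scaling coverage to Drosophila spike-in reads. Each value below is such an average over an interval, in scaled coverage per base. The spread between libraries and the depth behind each value are unknown, so no difference between A and M was tested against replicate error. The question was whether the 2 factors, where their sites coincide, differ in how much signal is kept in mitosis.

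HSF1 is the main transcription factor of the heat shock response and binds DNA as a trimer at heat shock elements, which are inverted repeats of the unit GAA. In unstressed cells it also occupies many promoters and some enhancers. SOX2 is a high mobility group factor that, often beside OCT4, binds the enhancers that keep embryonic stem cells pluripotent. During mitosis most transcription stops and many factors are displaced from condensed chromosomes, while some, SOX2 among them, have been studied for the binding that they keep. The ratio of mitotic to asynchronous signal is given as log2 M/A, in which −1 is a 2-fold lower mitotic signal.

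The sequences shown here are from the GRCm38 (mm10) assembly of RefSeq, and were chosen because they hold motif matches or carry an extreme or well-known site. The first set shows the OCT-SOX composite motif (TGCATN directly followed by ACAANG), in capitals, at 3 sites where it lies inside the SOX2 interval. Each match has 12 bases of flank on both sides and is written on the strand of the motif. The motif also lies inside the SOX2 interval at the site nearest to Col14a1, which is not shown.
Lrrtm3, chr10:64744503-64744538, minus strand: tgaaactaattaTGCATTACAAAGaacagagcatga
Tgif1, chr17:70866782-70866817, minus strand: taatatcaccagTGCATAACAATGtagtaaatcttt
Tcp10c, chr17:13338220-13338255, minus strand: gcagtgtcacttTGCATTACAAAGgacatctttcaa

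The second set shows heat shock elements of 3 units (GAANNTTC directly followed by NNGAA), in capitals, with the same flanks. Sites are named by the nearest coding start, which can be far away. The elements at the Hmox1, Pdcd6ip and Zmat4 sites lie inside the SOX2 interval. The element at Esrrb lies in the HSF1 interval only, as do 2 overlapping elements on opposite strands at Jarid2, of which that on the plus strand is shown.
Hmox1, chr8:75089816-75089852, plus strand: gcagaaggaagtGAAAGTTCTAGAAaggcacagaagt
Pdcd6ip, chr9:113324813-113324849, minus strand: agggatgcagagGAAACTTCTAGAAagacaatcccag
Zmat4, chr8:23562036-23562072, minus strand: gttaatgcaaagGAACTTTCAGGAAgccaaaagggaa
Esrrb, chr12:86500809-86500845, plus strand: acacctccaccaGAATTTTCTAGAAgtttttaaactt
Jarid2, chr13:44707491-44707527, plus strand: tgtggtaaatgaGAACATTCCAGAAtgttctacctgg

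The third set shows SOX2 intervals of 3 sites, as the central 300 bases where the interval is longer. At Nanog and Wbp1 the capitals mark the SOX core ACAAAG on either strand. At Slc25a40, the site with the highest asynchronous SOX2 signal of the 328, the capitals mark 1 unit of 55 bases, of which close copies follow to its right.
Nanog, chr6:122702732-122703031, plus strand: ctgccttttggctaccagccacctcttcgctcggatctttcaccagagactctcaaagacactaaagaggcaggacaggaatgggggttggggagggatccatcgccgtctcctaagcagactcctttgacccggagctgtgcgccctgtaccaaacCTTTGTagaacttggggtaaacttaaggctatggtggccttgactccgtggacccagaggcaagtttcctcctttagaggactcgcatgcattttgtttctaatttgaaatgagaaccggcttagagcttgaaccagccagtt
Wbp1, chr6:83121569-83121667, plus strand: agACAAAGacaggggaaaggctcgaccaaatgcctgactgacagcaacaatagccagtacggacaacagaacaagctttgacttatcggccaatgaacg
Slc25a40, chr5:8488895-8489194, plus strand: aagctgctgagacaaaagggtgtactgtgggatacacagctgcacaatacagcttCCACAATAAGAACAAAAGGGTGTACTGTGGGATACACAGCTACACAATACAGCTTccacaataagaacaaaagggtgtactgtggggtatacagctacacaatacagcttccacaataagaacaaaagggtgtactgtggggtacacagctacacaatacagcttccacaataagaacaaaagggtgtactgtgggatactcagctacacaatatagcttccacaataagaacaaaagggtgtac

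HSF1 signal at the 328 sites was moderate in A cells and lower in M cells at most of them. The asynchronous signal ranged from 0.148 to 29.2, with a median of 4.77 and quartiles of 3.13 and 7.04. The mitotic signal ranged from 0.131 to 24.5, with a median of 3.15 and quartiles of 2.04 and 4.60. These were weaker HSF1 sites than most, since the medians over all 1726 HSF1 sites were 6.21 in A and 4.07 in M, and the median site ranked at percentile 36.5 of all HSF1 sites in A. Only 10 of the 328 were in the top 10% of HSF1 sites by asynchronous signal.

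The mitotic HSF1 signal was the lower one at 298 of the 328 sites (90.9%), close to the 91.9% of all HSF1 sites, and the higher one at 30 (9.15%), against 8.11% of all. The median log2 M/A was −0.60, with quartiles of −0.99 and −0.33 and a range of −2.38 to 0.62. It was −0.62 over all HSF1 sites, −0.57 at sites with SOX2 and HSF2, −0.65 at sites with HSF2 alone and −0.62 at sites with neither. In these values the typical ratio was therefore close to that of all HSF1 sites. Subtracting the median of the weakest quartile of all HSF1 sites (−0.59) left a median of −0.0045 at the 328 sites. A second set of averaged HSF1 values, deposited with the site list and of unstated scaling, gave a median log2 M/A of −3.13 at these sites and of −2.41 over all sites. In that second set the median here lay below the one over all sites, and 97.3% against 92.0% were at −1 or lower. Closeness to all HSF1 sites thus held only in the first set. HSF1 was lower in M in both sets of values, by an amount that differed between them, and the cause was not tested.

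Low ratios were more frequent than in the table as a whole. A log2 M/A of −1 or lower was seen at 79 of them (24.1%), against 17.7% of all HSF1 sites, 9.75% at sites with SOX2 and HSF2, 15.6% with HSF2 alone and 19.8% with neither. No site had a log2 M/A of 1 or higher, which was rare over all HSF1 sites as well, at 9 of 1726 (0.521%). Between the phases, log2 HSF1 signal had a squared Pearson correlation of 0.76 across the 328 sites and of 0.85 across all HSF1 sites. Sites of this kind were also more often far from genes, and among sites more than 1 kb from a coding start the share at −1 or lower was 26.9% here (74 of 275), 14.5% with SOX2 and HSF2, 20.9% with HSF2 alone and 24.5% with neither. Among these distal sites, those with neither factor had the wider interquartile range of log2 M/A, 0.79 against 0.69 here. Within 1 kb of a start the share at −1 or lower was 9.43% here and 4.46% with SOX2 and HSF2. It was 13.4% with HSF2 alone and 13.2% with neither. Split by asynchronous HSF1 signal, it was 26.8% in the weakest quartile of the 328 and 19.5% in the strongest. None of these differences between classes or quartiles was tested.

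**Figure D1:**
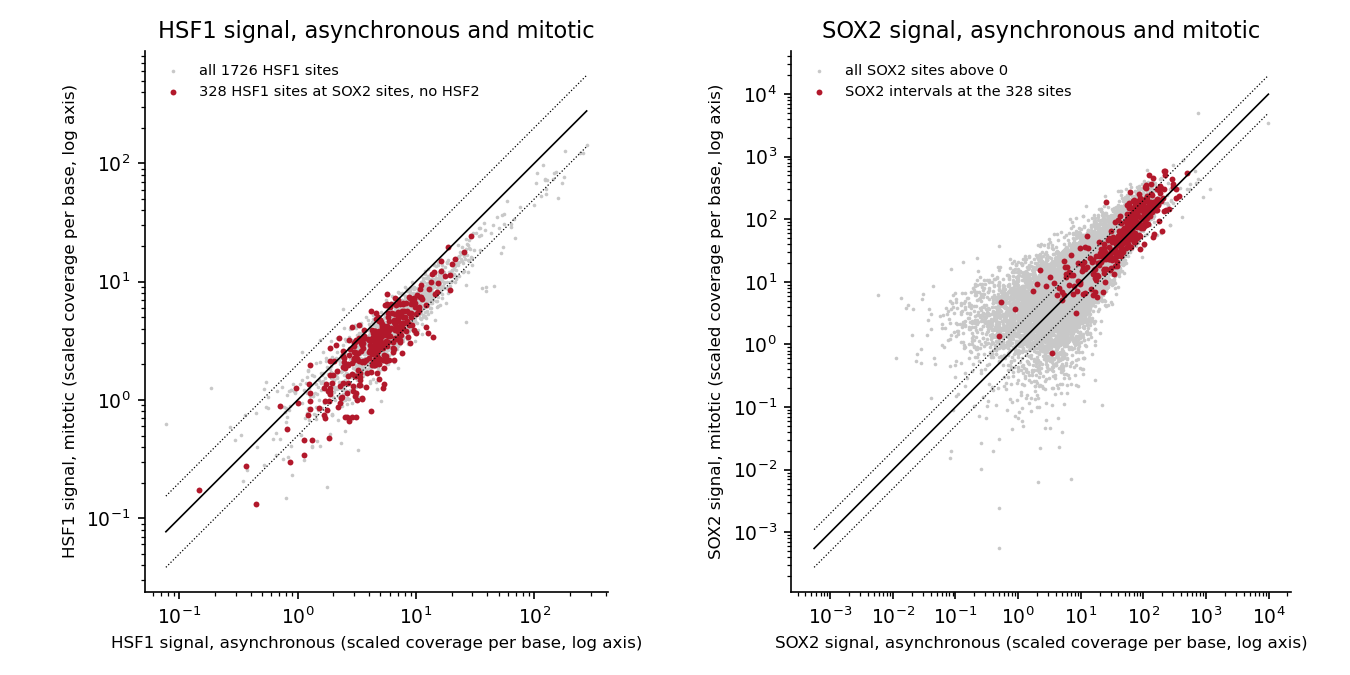
Asynchronous (x) against mitotic (y) signal in scaled coverage per base on log axes, for HSF1 (left) and SOX2 (right), with 1 point per site, the 328 HSF1 sites or their SOX2 intervals in red, and all sites of the table in grey. The solid line marks equal signal and the dotted lines a 2-fold difference; the red HSF1 points lie mostly below the solid line and the red SOX2 points on both sides of it, in the upper range of all SOX2 intervals.

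SOX2 signal at the same places was among the highest of the SOX2 list and was not lower in mitosis at most intervals. Over the 344 intervals the median was 54.0 in A (quartiles 24.2 and 93.4) and 55.3 in M (quartiles 25.9 and 131.0), against 8.74 and 10.7 over all SOX2 intervals, a ratio of medians of 6.17 in A and 5.17 in M. The 254 SOX2 intervals at HSF1 sites with HSF2 were also above the list, with medians of 38.3 in A and 45.4 in M. In A cells 221 of the 344 (64.2%) were in the top 10% of all SOX2 intervals, and in M cells 173 (50.3%) were. The SOX2 intervals were also wider, with a median of 399 bp against 224 bp. Within the widest quartile of all SOX2 intervals, the 209 at these HSF1 sites had a median asynchronous signal of 63.3 against 18.05 for that quartile as a whole, and within the narrowest quartile 41 had a median of 20.4 against 5.12.

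The mitotic SOX2 signal was higher at 216 of the 342 intervals with signal in both phases (63.2%), against 63.4% of all SOX2 intervals. The median log2 M/A was 0.26 per interval, with quartiles of −0.22 and 0.73, against 0.34 over the list. Large ratios were less frequent than in the list in both directions. A log2 M/A of 1 or higher was seen at 56 intervals (16.4%), against 26.8% of all, and of −1 or lower at 14 (4.09%), against 10.0% of all. Within the widest quartile the shares were 12.4% and 0.957% at these sites and 20.6% and 3.67% over the quartile. At HSF1 sites that also overlapped HSF2, 254 SOX2 intervals had a median log2 M/A of 0.19. Of these, 21.3% were at 1 or higher and 3.15% at −1 or lower. Fewer large ratios than in the list were thus seen at both kinds of HSF1 site. SOX2 signal was also higher at both kinds, with asynchronous medians of 54.0 and 38.3 against 8.74 over the list. At the sites described here, 24.7%, 6.10%, 20.7% and 12.2% were at 1 or higher, from weakest to strongest quartile by asynchronous SOX2 signal. The shares at −1 or lower were 4.94%, 2.44%, 1.22% and 4.88%. The part of signal level in these ratios was not tested.

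**Figure D2:**
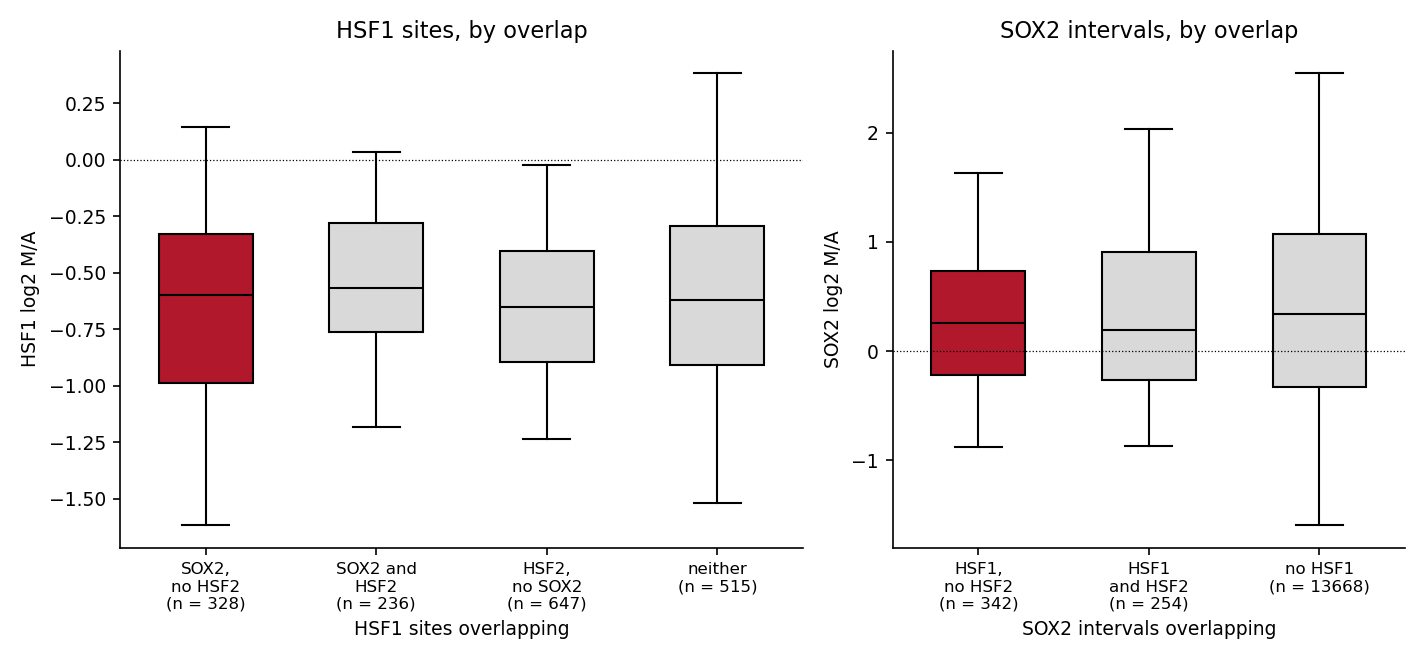
Log2 M/A of HSF1 over HSF1 sites (left, by overlap with SOX2 and HSF2 intervals) and of SOX2 over SOX2 intervals (right, by overlap with HSF1 sites), with n under each box. Boxes span the quartiles with a line at the median, whiskers reach the percentiles 5 and 95, and the red boxes are the sites described here, at a median of −0.60 for HSF1 and 0.26 for SOX2.

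Site by site, with SOX2 averaged over the SOX2 intervals of a site by width, the SOX2 log2 M/A was above the HSF1 log2 M/A at 276 of 328 sites (84.1%) and below it at 51. The median difference was 0.89, with quartiles of 0.32 and 1.55. HSF1 was lower and SOX2 higher in M at 193 sites, both were lower at 104, both were higher at 16, and HSF1 was higher with SOX2 lower at 14. At the remaining site, near Zfp41, SOX2 was 0 in A. At 18 sites HSF1 was at least 2-fold lower while SOX2 was at least 2-fold higher, and at 3 sites both were at least 2-fold lower. A higher ratio for SOX2 than for HSF1 was general, with medians of 0.34 over all SOX2 intervals and −0.62 over all HSF1 sites. HSF1 was lower in M at 91.9% of all HSF1 sites, and SOX2 was higher at 63.4% of all SOX2 intervals. At the 236 sites with SOX2 and HSF2 the medians per site were 0.23 for SOX2 and −0.57 for HSF1. The counts of joint direction were made for the 328 sites only, with the first set of HSF1 values. The SOX2 and HSF1 tracks were scaled separately. When each factor was centred on the weakest quartile of its own list, the median difference was −0.0030, since the medians of those weak sites were −0.59 for HSF1 and 0.30 for SOX2.

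Levels of both factors went together across the sites, but their ratios did not. Across 327 sites with SOX2 signal above 0 in A, log2 HSF1 and log2 SOX2 signal had a Pearson correlation of 0.60 and a Spearman correlation of 0.55 in A cells. In M cells the values were 0.45 and 0.40 across 328 sites. These points share the chromatin, the transposase and the base composition of a place, and all sites of a factor come from the same 4 libraries. The HSF1 log2 M/A and the SOX2 log2 M/A had a Pearson correlation of −0.084 and a Spearman correlation of −0.12. When the sites were split by asynchronous SOX2 signal, the strongest quartile (93.8 to 498) had a median HSF1 signal of 6.52 in A and 4.06 in M, and the weakest (up to 26.7) one of 2.89 and 1.94. The median HSF1 log2 M/A of these 2 quartiles was −0.60 and −0.65.

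**Figure D3:**
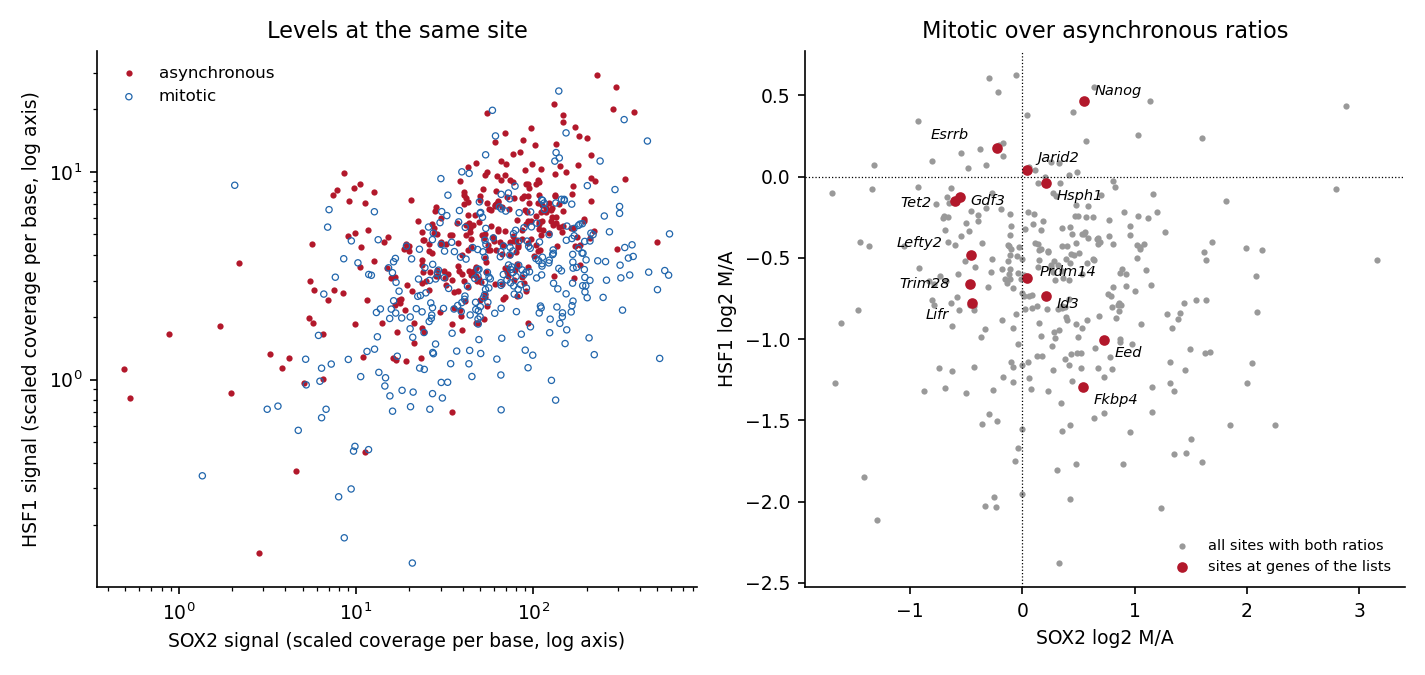
Left, SOX2 signal (x) against HSF1 signal (y) at each of the 328 sites in asynchronous (filled red) and mitotic (open blue) cells, in scaled coverage per base on log axes. Right, SOX2 log2 M/A against HSF1 log2 M/A at the 327 sites with both ratios, where 193 points lie at the lower right, and the 13 sites at genes of the lists are in red.

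The strongest HSF1 sites of the set were not at heat shock genes. The highest lay in an intron of Parp16, an ADP-ribosyltransferase of the endoplasmic reticulum (chr9:65200677-65202399), with an HSF1 signal of 29.2 in A and 24.5 in M, which ranked 52 among all HSF1 sites. SOX2 there was 228 in A and 139 in M. The next was centred 28707 bp downstream of the start of Pecr, a peroxisomal reductase (chr1:72254112-72256992), with HSF1 at 25.5 and 17.8 and SOX2 at 294 and 326. A pair of further sites in the same stretch is closest to Mreg (chr1:72225123-72231086 and chr1:72242332-72245866), with HSF1 at 16.4 and 12.4 at the first and 16.2 and 14.9 at the second. At the start of Gtf3c6, a subunit of the RNA polymerase III factor TFIIIC (chr10:40257664-40260511), HSF1 was 21.2 and 15.4. Upstream of Mkrn1, a ubiquitin ligase, by 25454 bp, it was 20.1 and 14.1. In Tex14, a protein of germ cell bridges, it was 19.3 and 11.3, and at the start of the splicing factor Rbm25 it was 19.3 and 8.53. In each of these 6 sites named for the highest signal, HSF1 was lower in M, and SOX2 was lower in M at Parp16 and Tex14 and higher at the other 4. The Mreg pair, like the edge and sequence examples, was singled out after its values were seen.

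Among sites at or above the median of the mean HSF1 signal (3.96), the 5 lowest ratios all lay more than 10 kb from the nearest coding start. HSF1 was 13.8 in A and 3.39 in M at a site centred 20165 bp upstream of Cyp2b23, a cytochrome P450 (log2 M/A −2.03), where 89.6% of the bases are soft-masked repeats. It was 12.5 and 3.70 at a site 12931 bp upstream of Ints3, a subunit of the Integrator complex (−1.76). It was 7.60 and 2.48 at a site 71747 bp upstream of Pax1, a paired box factor (−1.62). In an intron of Ctnna3, with Lrrtm3 as the nearest start, it was 8.92 and 3.01 (−1.57), and in an intron of Syndig1 it was 6.49 and 2.19 (−1.57). SOX2 at the Ints3 site was 84.4 in A and 256 in M, at the Pax1 site 71.1 and 201, and at the Ctnna3 site, which holds the OCT-SOX composite shown above, 107 and 209. It was 28.02 and 35.7 at the Syndig1 site. At the Cyp2b23 site SOX2 was 61.1 and 48.6. These 5 sites were chosen for their HSF1 ratio, and SOX2 was higher in M at 4 of them.

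The highest HSF1 ratio among these stronger sites was at Nanog, a core pluripotency factor. The site (chr6:122701964-122703251) is centred 4882 bp upstream of the Nanog start, within the known upstream enhancer region of the gene. The HSF1 signal of 5.72 in A compared with 7.90 in M (a ratio of 0.47 on the log2 scale), and the SOX2 signal of 49.4 with 72.4 (0.55). In these values both factors were thus higher in M there, as at 16 of the 328 sites. In the second set of HSF1 values, HSF1 was lower in M at all 328 sites. At Nanog that set gave 9.25 in A and 0.858 in M. The next was the start shared by Wbp1 and Ino80b, the latter a subunit of the INO80 remodeller (chr6:83121008-83122577), with HSF1 at 4.16 and 5.63. SOX2 at that site was 25.7 and 189, the highest SOX2 ratio among sites at or above the median SOX2 signal of 60.2 (2.88), over an interval of 99 bp. HSF1 was 4.63 and 5.39 at a site 5973 bp upstream of Nufip2, an RNA-binding protein, while it was lower in M at the other 2 sites nearest to this gene (4.74 and 2.24, 9.89 and 6.57). It was 5.65 and 6.51 near Spns3, where the interval holds a heat shock element, and 5.51 and 6.31 in an intron of Sdf2, next to the start of the elongation factor gene Supt6. The ratios of these last 3 were 0.20 to 0.22.

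**Figure D4:**
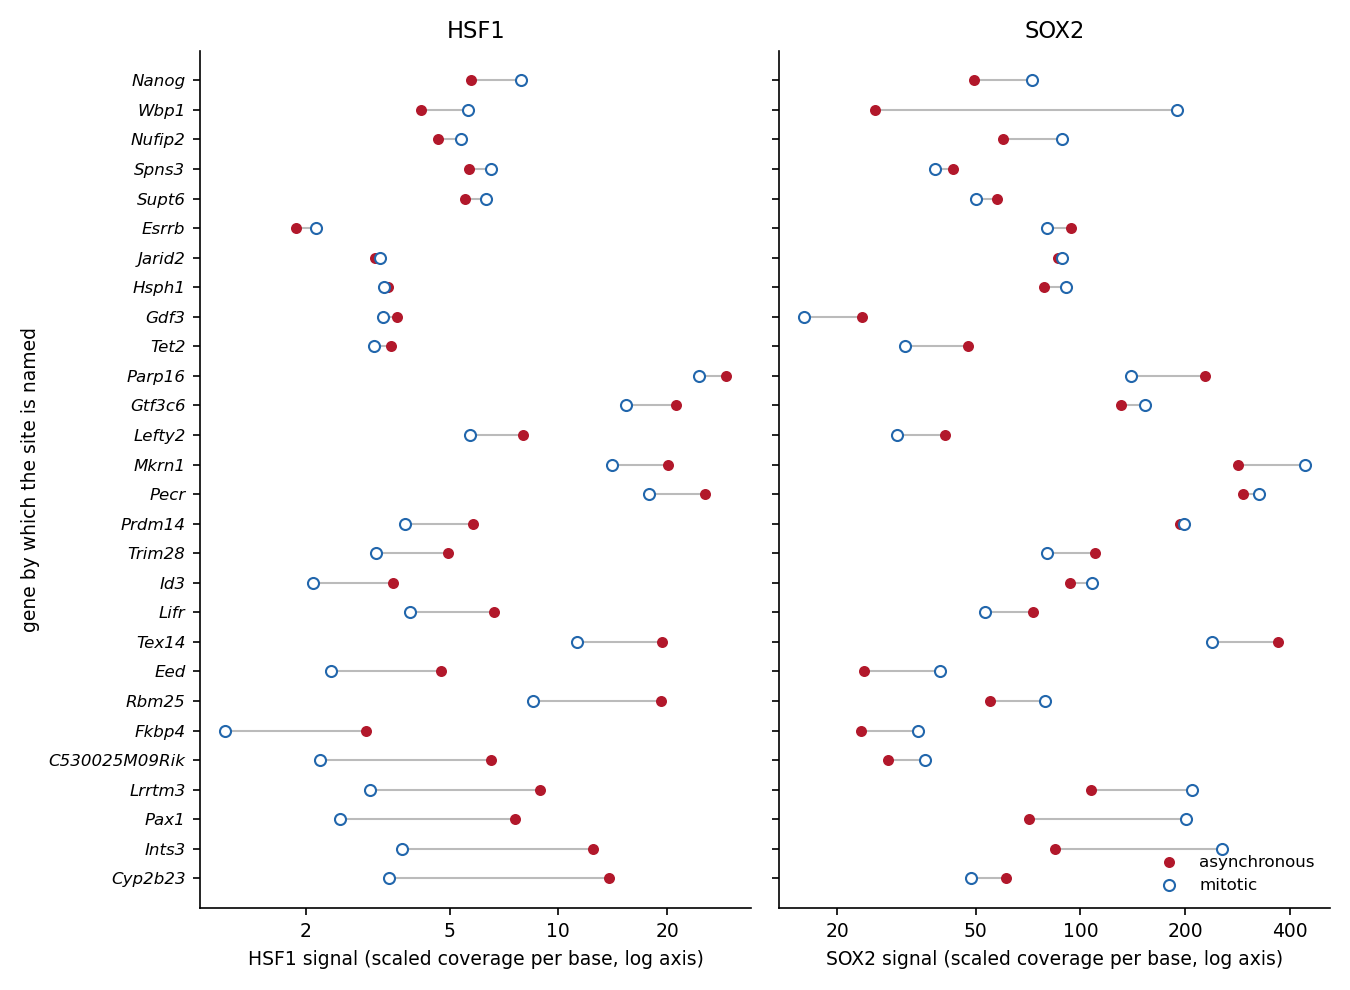
HSF1 (left) and SOX2 (right) signal in asynchronous (filled red) and mitotic (open blue) cells at the sites named for HSF1 level, HSF1 ratio or a listed gene, ordered by HSF1 log2 M/A, in scaled coverage per base on log axes. In the first set of HSF1 values, shown here, HSF1 was higher in M at the top 7 rows, from Nanog to Jarid2, and lower in the rows under them. In the second set it was lower in M at every site. Each point is the authors' average of 2 libraries.

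The site with the highest asynchronous SOX2 signal lay between genes with Slc25a40, a mitochondrial carrier, as the nearest start (chr5:8487686-8490122). SOX2 was 498 in A and 552 in M there, and HSF1 was 4.57 and 3.35. Its window is a tandem repeat, in which 93.1% of bases match the base 55 positions away. By the same measure, with at least 80% identity at a shift of 10 to 150 bp, 2 of the 344 SOX2 intervals were tandem repeats, against 11 of all 15081. The other was the site with Tnc as the nearest start (identity 95.6% at 120 bp), where SOX2 was 142 in A and 51.7 in M and HSF1 10.7 and 6.05. The part of repeated sequence in these values was not tested. Without these 2 sites the median per site was −0.60 for the HSF1 ratio and 0.28 for the SOX2 ratio.

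Other sites of high SOX2 signal were in Tex14 (369 in A, 238 in M), at the start of Coil, which encodes the Cajal body protein coilin (329 and 307), in an intron of Car8 (298 and 366), and the Pecr and Mkrn1 sites. At Coil HSF1 was 9.27 and 6.81, and at Car8 4.25 and 3.92. Of these 6 sites named for SOX2 level, SOX2 was higher in M at 4.

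Among sites at or above the median SOX2 signal, the 5 lowest SOX2 ratios included 3 neighbouring sites upstream of Kif2c, a microtubule-depolymerising kinesin of mitotic centromeres. They lie on chromosome 4 and are centred 7205, 19782 and 28515 bp upstream of its start. SOX2 signal at the nearest was 202 and 65.9 in A and M (−1.61 on the log2 scale), at the next 102 and 39.5 (−1.36) and at the farthest 89.8 and 33.0 (−1.44). HSF1 was 14.6 and 7.79, 13.4 and 9.99, and 10.2 and 7.72 at the same sites, so both factors were lower in M at all 3. Neighbouring sites share their surroundings and are not independent examples. A site at chr16:3120078-3124814, with the olfactory receptor gene Olfr161 as the nearest start, had SOX2 at 147 and 58.8 and HSF1 at 18.8 and 19.7. The highest SOX2 ratios of these stronger sites, after Wbp1, were at the start of Nfatc2ip, with SOX2 at 61.3 and 269, near Gm37596, at 125 and 502, in Grik2, a kainate receptor gene, with a ratio of 1.69, and near Sap30, a subunit of the SIN3 deacetylase complex, at 140.3 and 448. HSF1 was lower in M at these 4 sites, with log2 M/A between −1.27 and −0.40.

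Of the 328 sites, 13 lay at genes of the lists, which differ in size. Of 30 genes in the pluripotency list, 5 had a site within 50 kb of a start or overlapping the gene. By this rule 3 of 23 chromatin regulators, 3 of 26 signalling genes and 2 of 41 heat shock and chaperone genes had one. The share among all coding genes was not computed, and no difference between lists was tested. At the 5 pluripotency sites HSF1 was lower in M at 3 and higher at 2 in the first set of HSF1 values. Their median HSF1 log2 M/A was −0.13, against −0.60 over the 328 sites. SOX2 was higher in M at 2 of the 5. Besides Nanog, the site in an intron of Esrrb, a nuclear receptor of the naive state (chr12:86500381-86502956), had HSF1 at 1.88 in A and 2.13 in M and SOX2 at 93.8 and 80.3. The site at the start of Gdf3, a TGF-beta family ligand (chr6:122607852-122611204), had HSF1 at 3.57 and 3.27 and SOX2 at 23.6 and 16.0. The site 42276 bp downstream of the start of Prdm14, a repressor that guards naive pluripotency (chr1:13083868-13085907), had HSF1 at 5.80 and 3.77 and SOX2 at 193 and 199. An interval of 6043 bp that overlaps Trim28, the KAP1 co-repressor, had HSF1 at 4.96 and 3.13 and SOX2 at 110.4 and 80.02. With 5 sites, no list median can be set against a replicate error. In this list HSF1 sites with both SOX2 and HSF2 were more numerous, 9 of 17 sites of any class, against 5 without HSF2. The sites described here were 3 of 7 HSF1 sites of any class at chromatin regulators and 3 of 8 at signalling genes.

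A pair of sites nearest to Klf4, another pluripotency factor, lay just beyond the 50 kb limit for the lists and was named after its values were seen. The one centred 54782 bp downstream of the start (chr4:55476642-55478727) had HSF1 at 4.85 in A and 4.64 in M and SOX2 at 176 and 92.3. The one at 68316 bp had HSF1 at 2.88 and 1.66 and SOX2 at 67.0 and 85.6. SOX2 had the lower ratio at the first and HSF1 at the second.

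Of 26 signalling genes, 3 had a site, and HSF1 was lower in M at all 3. Near Lefty2, a Nodal antagonist, HSF1 was 7.96 in A and 5.69 in M and SOX2 40.8 and 29.8. In an intron of Lifr, the LIF receptor, HSF1 was 6.65 and 3.88 and SOX2 72.9 and 53.3. Downstream of Id3, a target of BMP signalling, HSF1 was 3.48 and 2.09 and SOX2 93.2 and 108. Of 23 chromatin regulators, 3 had a site. Upstream of Eed, a core subunit of Polycomb repressive complex 2, HSF1 was 4.72 and 2.35 and SOX2 23.8 and 39.5. In Tet2, a methylcytosine dioxygenase, HSF1 was 3.43 and 3.09 and SOX2 47.7 and 31.4. Upstream of Jarid2, a Polycomb partner, HSF1 was 3.11 and 3.20 and SOX2 86.2 and 88.5, with a log2 M/A of 0.04 for both factors.

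Heat shock and chaperone genes had 2 of the 328 sites, both far from the start, out of 35 HSF1 sites of any class at these genes, of which 23 were at HSF2 without SOX2. The site 17819 bp upstream of Hsph1, which encodes HSP110, had HSF1 at 3.38 in A and 3.29 in M and SOX2 at 78.5 and 91.0. The site 28109 bp upstream of Fkbp4, an HSP90 co-chaperone, had HSF1 at 2.93 and 1.19 and SOX2 at 23.5 and 34.2. No site was assigned to the 23 lineage genes or the 18 ubiquitin and proteasome genes of the lists. The first of these had 1 HSF1 site in the other classes and the second had 4.

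Most of these sites lay away from promoters. Only 53 (16.2%) were within 1 kb of a coding start, against 48.1% of all HSF1 sites, 47.5% with SOX2 and HSF2, 70.2% with HSF2 alone and 41.2% with neither. By the position of the centre, 84 (25.6%) were in introns, 185 (56.4%) between genes and 6 in exons. The nearest coding start was within 50 kb at 223 sites. Within 1 kb of a start the median HSF1 signal was 5.98 in A and 4.13 in M and the median SOX2 signal 33.7 and 32.5. Farther away the HSF1 medians were 4.60 and 3.02 and the SOX2 medians 60.5 and 65.9. The median HSF1 log2 M/A was −0.47 at the 53 sites and −0.61 at the other 275, with 5 and 74 of them at −1 or lower.

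The SOX2 interval was inside the HSF1 interval as a rule. It was contained in full in 311 of 344 pairs, and the median distance between the centres was 245 bp, against 361.5 bp at HSF1 sites with both SOX2 and HSF2. The width of the HSF1 intervals ran from 590 to 7050 bp around a median of 1922 bp. The nearest HSF2 interval was a median of 224994 bp away, within 10 kb at 30 sites and within 1 kb at 2. Closest to an HSF2 interval was a site in an intron of Fanci, at 441 bp, with HSF1 at 2.69 in A and 0.657 in M. The smallest overlap with SOX2 was 14 bp, with Snx5 as the nearest start, with HSF1 at 5.03 and 3.40.

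The HSF1 ratio varied with width and base composition across the 328 sites. In the quartile of narrowest HSF1 intervals (590 to 1362 bp) a median log2 M/A of −0.83 was seen, and 36.6% of sites were at −1 or lower. In the widest quartile (2563 to 7050 bp) the values were −0.51 and 7.32%. In the quartile of lowest GC content (32.9% to 42.4%) the median was −0.84 with 35.4% of sites at −1 or lower, and in the highest (49.6% to 65.9%) it was −0.47 with 18.3%. The Pearson correlation of log2 M/A was 0.23 with log2 width and 0.19 with GC content. The SOX2 median ratio was 0.44 within the narrowest HSF1 intervals and 0.05 within the widest, and its correlation with GC content was 0.028. Median GC content was 45.7% here and 51.7% over all HSF1 sites. The part of width and GC content in the ratios was not tested.

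Shares of motif matches at these places were close to those of SOX2 sites in general. Motifs were searched on both strands, for HSF1 at the 1719 sites on assembled chromosomes, among them all 328. In the 300 bases at the SOX2 centre the SOX core ACAATG, on either strand, was found in 115 of 344 windows (33.4%), against 32.5% of all SOX2 intervals, 37.2% of the strongest 10% and 13.1% and 15.7% of windows 2 kb before and after. The variant ACAAAG was found in 42.7%, against 45.6% of all SOX2 windows and 50.6% of the strongest 10%. Both SOX cores were thus less frequent here than in the strongest 10%. The octamer ATGCAAAT, bound by OCT4, was in 7.56%, against 8.65% of all and 6.49% of the strongest 10%. The OCT-SOX composite, which ends in ACAANG and so allows any base where the SOX cores differ, was in 3 windows (0.872%), against 1.56% of all. These are not the same 3 as the sequences shown, since the Tgif1 match lies 881 bp from the SOX2 centre. Matches of the SOX core peaked within 100 bp of the SOX2 centre in both sets. Over whole HSF1 intervals, the SOX core was in 72.0% of the 328 and in 53.5% of all HSF1 sites, whose median width was similar. It was in 66.9% of sites with SOX2 and HSF2, which were wider (median 2513.5 bp), 46.0% with HSF2 alone and 44.9% with neither. The higher share was thus seen at both kinds of HSF1 site with SOX2. Base composition differed, with a median GC content of 45.7% at the 328 and 51.7% over all HSF1 sites. It was 50.9% with SOX2 and HSF2, 55.5% with HSF2 alone and 51.1% with neither. The part of GC content in these shares was not tested.

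**Figure D5:**
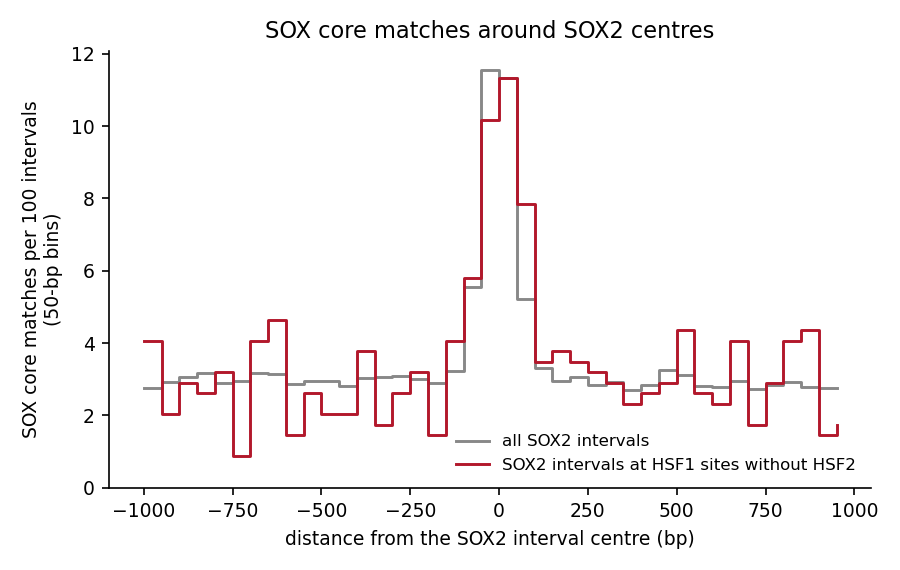
Matches of the SOX core ACAATG, given as matches per 100 SOX2 intervals in bins of 50 bp, by distance from the interval centre, for the 344 SOX2 intervals at these HSF1 sites (red) and all SOX2 intervals (grey). Both lines reach 11.3 matches per 100 intervals in the bin from 0 to 50 bp and lie between 0.872 and 4.65 beyond 100 bp to either side.

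Heat shock elements of 3 units were less frequent here than at the other kinds of HSF1 site. Over whole intervals they were found in 25 of the 328 sites (7.62%), against 16.0% of all HSF1 sites, 24.6% with SOX2 and HSF2, 18.9% with HSF2 alone and 13.7% with neither. In 300 bases at the HSF1 centre the shares were 1.83% here (6 of 328) and 4.07% over all. In windows 2 kb before and after all HSF1 sites they were 0.465% and 0.698%, below both. The pairs of units GAANNTTC and TTCNNGAA, which the full element contains, were in 39.9% and 53.7% of whole intervals, against 46.2% and 52.3% over all. A match is a string of letters and not evidence of binding, and no match says only that these letters are not in the window. The 25 sites with an element had a median HSF1 signal of 2.96 in A and 2.13 in M and a median log2 M/A of −0.58, and HSF1 was higher in M at 7 of them (28%). The 303 without one had medians of 4.94 and 3.21 and a log2 M/A of −0.60, and HSF1 was higher in M at 23 (7.59%). The difference between sites with and without an element was not tested. In the second set of HSF1 values, HSF1 was lower in M at all 328 sites.

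Among the sites whose sequences are shown above, HSF1 was 3.78 in A and 2.19 in M near Hmox1, the heme oxygenase gene of the stress response, with SOX2 at 23.6 and 13.7. It was 3.07 and 1.08 at the Pdcd6ip site and 6.79 and 4.24 at the Zmat4 site, which lie 383372 and 107088 bp from those starts. With the OCT-SOX composite, HSF1 was 6.95 and 4.69 near Tgif1 and 4.36 and 2.09 near Tcp10c, and SOX2 was 60.5 and 53.4 at the first and 10.7 and 16.7 at the second. HSF1 was lower in M at these 5 sites, as at the Lrrtm3 and Slc25a40 sites. At the Esrrb, Jarid2, Nanog and Wbp1 sites, whose values are given above, it was higher in M in the first set of HSF1 values only.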

How the data were processed

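The deposited tables hold signal, that is, coverage made by the authors. As the methods describe it, Bowtie2 placed the reads on mm10, duplicates were kept, coverage was scaled to Drosophila (dm6) reads with deepTools, and tracks of replicates were averaged. It is unclear whether asynchronous tracks were then set to 1. HSF1 and HSF2 intervals were called with SEACR against IgG in both phases, combined, and measured in the same data. SOX2 intervals came from the literature. The HSF1 antibody is named differently in the labels and the methods. From the signal, log2 M/A was computed without a pseudocount where both phases were above 0. Nothing was tested, since only averages were used, and depth is unknown. Coding starts are those of GENCODE M21. Sites were named by the nearest coding start: the 6 highest by HSF1 and by SOX2, the 5 highest and 5 lowest ratios of each factor among sites at or above the median signal, and sites within 50 kb of, or overlapping, listed genes. Members and lists were chosen with earlier results of these data known. The 6 columns of HSF2 constructs were not used. On simulated data, all of 2000 sites were classed correctly and all 200 planted elements found. Alternatives changed the overlap, pseudocount, minimum signal, centring, value source, start distance and motif window. Calculations used Python 3.11.15 with pandas 2.3.3, numpy 2.4.6 and scipy 1.17.1, and plots matplotlib 3.10.9. Some items are not reported here.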

Additional observations from a re-analysis of the deposited data

How the results depend on the processing

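The number of sites was 324 to 328. Of 54 alternative values, 39 stayed within a range set around the main value, 13 left it and 2 changed sign. For medians the range was a 95% interval over sites, which are not replicates. For the number of sites it was wide, 219 to 492. Centring each factor on the weakest quartile of its list (subtracting −0.59 for HSF1 and 0.30 for SOX2) left a median log2 M/A of −0.0045 for HSF1 and −0.021 for SOX2, a difference of −0.0030, 50.6% of sites with lower HSF1 and 48.0% with higher SOX2, since it removes the shift that weak sites share with the rest. The HSF1 values of the site list gave −3.13, 100% of sites lower and a difference of 3.34, and the cause was not tested. A pseudocount of 1 gave −0.48 for HSF1 and a difference of 0.76. The ratio of mean SOX2 signals gave 0.41. With a mean signal of at least 1, the correlation of levels was 0.515. Within 5 kb of a start there were 24.4% of sites. The SOX core was in 23.5% of windows at the HSF1 centre and in 72.0% of whole intervals. Leaving out the 2 tandem repeats was chosen after the data were examined and moved the difference to 0.90. No paired analysis was possible because only averages of the replicates were used, and no library could be left out. Depth is unknown, so weak sites cannot be told from background by counting error.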
